A study of Rattus norvegicus with 8 samples.

Results

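The thioredoxin, peroxiredoxin, superoxide dismutase and catalase genes were read in rat liver through every non-control probe set that the platform's annotation assigned to Txn1, Txnrd1, Txnrd2, Prdx1, Prdx2, Prdx3, Prdx6, Sod1, Sod2 or Cat alone. Of these 10 genes, 9 had a probe set, giving 18 of the 8740 non-control probe sets; no probe set carried the name Txn1, which was therefore not analysed here. Liver RNA came from 8 male Fischer 344 rats fed AIN 76A chow, whose age the labels give as 6 without a unit, and each liver was read on its own Affymetrix Rat Genome U34 array. By gavage on days 1, 3 and 5, a group of 4 rats received 0.3 mmol per kg body weight of the dithiolethione 3H-1,2-dithiole-3-thione (D3T) in saturated sucrose. The vehicle group, also 4 rats, was given the sucrose solution only (0.2 ml). The labels name no gavage days for vehicle replicate 2. The comparison asks which of these transcripts differ in liver after D3T. Whole liver holds several cell types, so fewer cells of a type and less RNA per cell cannot be told apart.

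These enzymes form linked steps that remove reactive oxygen. Superoxide dismutases turn superoxide into hydrogen peroxide, which catalase breaks down in peroxisomes and which peroxiredoxins reduce in the cytosol and in mitochondria. Thioredoxin restores most peroxiredoxins, and thioredoxin reductase restores thioredoxin at the cost of NADPH. Dithiolethiones are known to activate the transcription factor encoded by Nfe2l2, and Txnrd1 and Prdx1 are among the genes it is known to control in rodents.

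Signals are the deposited values on a linear scale, 1 per probe set and array. Fold changes and tests are on log2 signals from a limma fit to all 5244 probe sets tested, with Benjamini-Hochberg adjustment over all of them and an adjusted p under 0.05 as the threshold. Of these 5244 probe sets 4.2% passed as higher after D3T and 6.48% as lower. The actin 3'/5' ratio, a measure of RNA integrity, ran from 1.17 to 1.47 in the D3T arrays and from 1.45 to 1.59 in vehicle (exact two-sided permutation p = 0.0571 over 70 assignments). The GAPDH ratio was 2.00 in D3T replicate 3 and 1.43 to 1.47 in the other D3T arrays, against 1.70 to 2.18 in vehicle (p = 0.114 by the same exact test). All 9 hepatocyte markers with a probe set were bright enough to be tested, and none of the 3 neutrophil markers was.

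Prdx6 and Prdx3, encoding peroxiredoxins, had higher signals after D3T by 1.31-fold to 1.46-fold in the 3 probe sets that passed, and no probe set of the other 7 genes passed in either direction. The filter on dim signals kept 17 of the 18 probe sets, and 3 of these 17 (17.6%) passed as higher and 0 as lower. Some of the 17 read the same gene, since 6 of the 9 genes had more than 1 probe set. By the brightest tested probe set of each gene, 1 of the 9 genes, Prdx3, passed as higher, where 3.71% of 3150 genes did. Of the 17, 14 had a positive log2 fold change, with M11670_at of Cat among them at 0.0005. The median of the 17 was 0.30, where the median of all tested probe sets was 0.02 and 51.3% were positive. In 4 of the 17 all D3T arrays lay above all vehicle arrays, which held for 7.89% of the probe sets tested, and in 0 of 17 did they lie wholly below, against 11.3%. These 4 were the 3 of Prdx6 and 1 of Prdx3. By contrast Gstp1, the pi-class glutathione transferase known to respond to dithiolethiones, was 29.9-fold higher in the same livers and Nqo1, the quinone reductase, 3.44-fold higher. None of the 3 calls was stable to the loss of an array. Prdx3 passed in 1 of 8 fits that each left out 1 array, and each of the called Prdx6 probe sets in 1 of 8. Over all 5244 probe sets, 240 to 695 passed in these fits, against 560 with all arrays. Adding each array's actin 3'/5' ratio to the fit (the actin covariate below) left 0 of the 17 past the threshold, and 35 of all 5244. The ratio almost separated the groups, so this fit can tell it from the D3T treatment only poorly, and a lost call does not show an absent change. The log2 fold changes of the 3 called probe sets were then 0.72 (AF014009_at), 0.43 (Y17295cds_s_at) and 0.37 (rc_AA799650_at), with adjusted p of 0.204, 0.432 and 0.358. A fit with no intensity trend in the variance also left 0 of the 17, and 333 of all 5244.

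**Figure D1:**
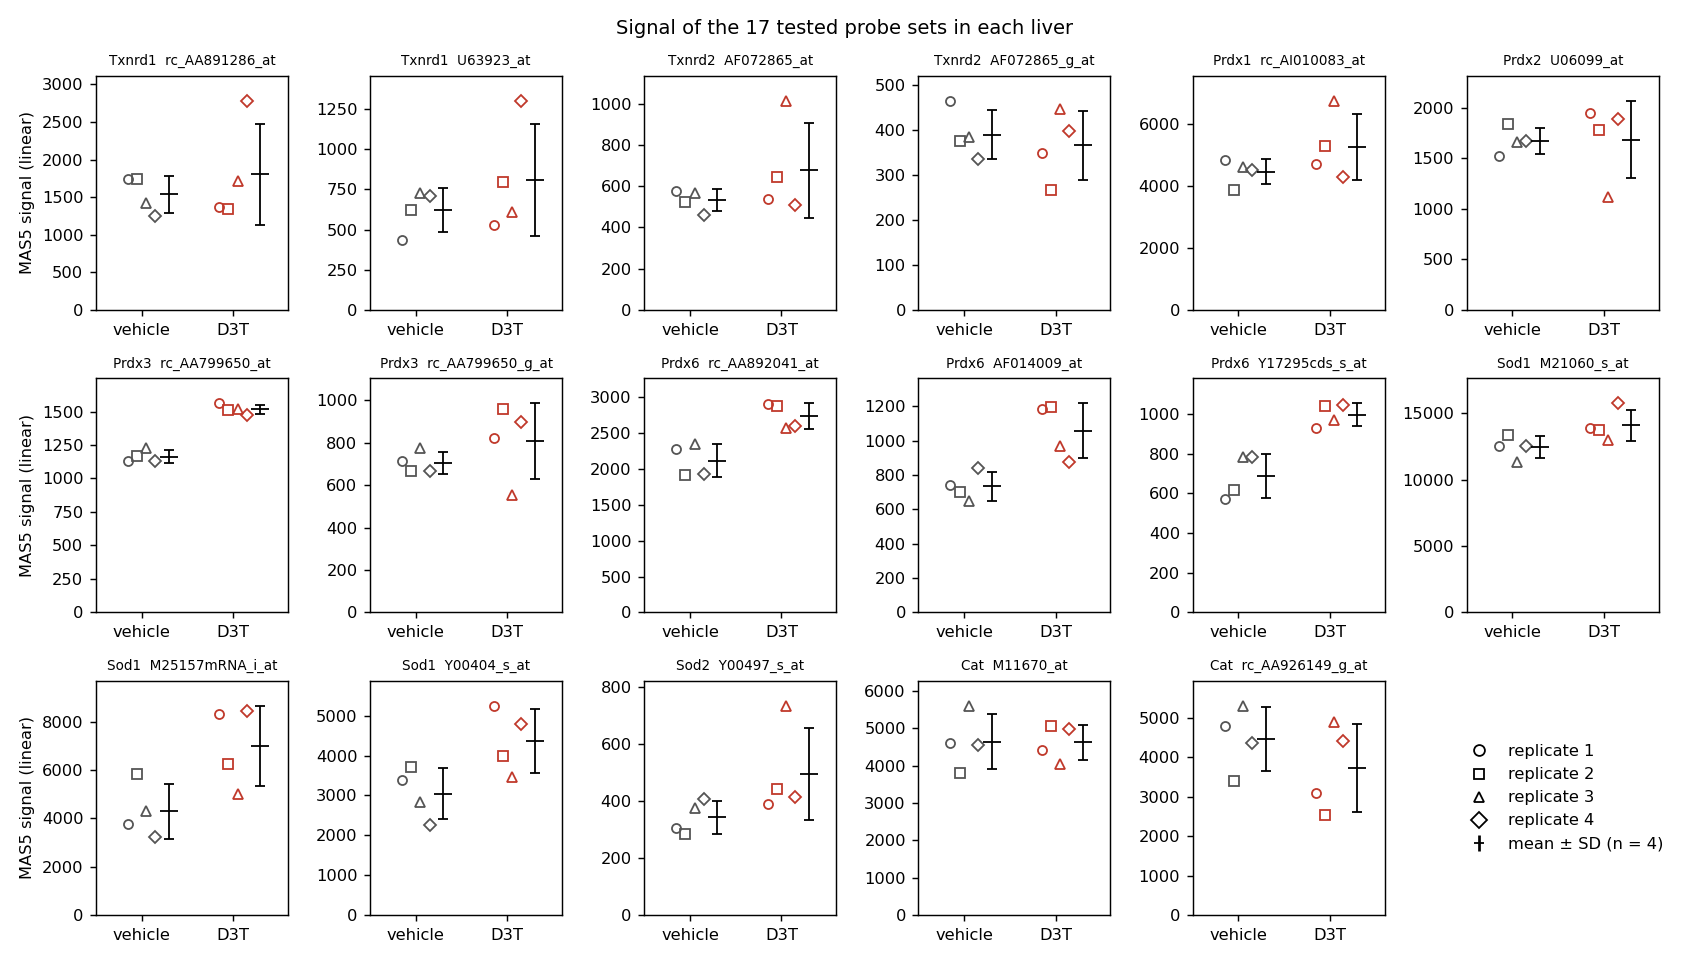
Signal (linear MAS5 units, axes from 0) of the 17 tested probe sets in each of the 4 vehicle (grey) and 4 D3T (red) livers, with the mean ± SD beside the points. The groups separate completely in the 3 Prdx6 panels and in the Prdx3 panel of rc_AA799650_at, and overlap in the other 13.

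**Figure D2:**
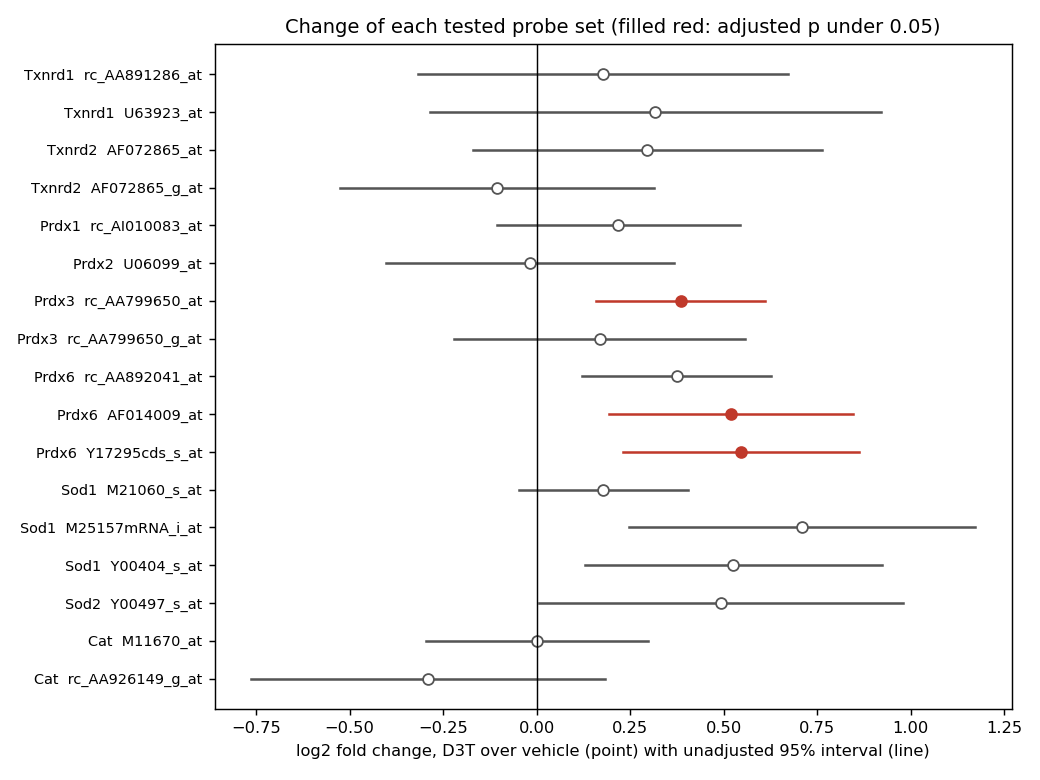
Log2 fold change of D3T over vehicle for each tested probe set, with its unadjusted 95% interval from the limma fit. Filled red points are the 3 probe sets past the threshold, 1 of Prdx3 and 2 of Prdx6, and the points of Cat, Prdx2 and AF072865_g_at of Txnrd2 lie at 0 or to its left.

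Promoter sequences from RefSeq (build GRCr8) were matched by symbol for 9 of the 10 genes, all but Prdx6, in 10 windows of 300 bases, from 250 bases before to 50 after the annotated start, and 4 are shown because they put Prdx1 and Txnrd1, known to be controlled through Nfe2l2, beside Prdx3, which passed, and Sod1, which did not. Each reads 5′ to 3′ on the gene's strand, and capitals mark every match, on either strand, to TGANNNNGC, a loose form of the antioxidant response element. The marked matches all lie on the opposite strand, so the capitals read as the reverse complement of the pattern.
Prdx1, chr5:135383656-135383955, plus strand: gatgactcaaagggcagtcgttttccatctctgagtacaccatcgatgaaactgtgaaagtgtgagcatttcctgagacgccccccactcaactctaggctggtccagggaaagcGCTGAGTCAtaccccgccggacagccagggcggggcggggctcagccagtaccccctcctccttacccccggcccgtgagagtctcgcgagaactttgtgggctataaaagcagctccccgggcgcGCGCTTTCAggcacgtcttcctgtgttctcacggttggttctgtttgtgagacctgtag
Txnrd1, chr7:22755855-22756154, minus strand: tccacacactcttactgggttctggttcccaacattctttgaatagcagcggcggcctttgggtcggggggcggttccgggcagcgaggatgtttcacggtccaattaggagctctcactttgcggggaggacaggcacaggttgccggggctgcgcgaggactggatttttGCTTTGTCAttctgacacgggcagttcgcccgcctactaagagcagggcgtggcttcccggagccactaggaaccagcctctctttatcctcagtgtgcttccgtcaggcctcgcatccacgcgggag
Prdx3, chr1:270000062-270000361, minus strand: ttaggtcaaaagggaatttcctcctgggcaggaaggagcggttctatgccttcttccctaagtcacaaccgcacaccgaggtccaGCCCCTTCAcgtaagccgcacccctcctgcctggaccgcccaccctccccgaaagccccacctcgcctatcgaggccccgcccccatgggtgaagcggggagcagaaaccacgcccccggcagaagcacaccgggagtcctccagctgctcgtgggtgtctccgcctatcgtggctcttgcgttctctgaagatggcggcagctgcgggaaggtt
Sod1, chr11:42942573-42942872, plus strand: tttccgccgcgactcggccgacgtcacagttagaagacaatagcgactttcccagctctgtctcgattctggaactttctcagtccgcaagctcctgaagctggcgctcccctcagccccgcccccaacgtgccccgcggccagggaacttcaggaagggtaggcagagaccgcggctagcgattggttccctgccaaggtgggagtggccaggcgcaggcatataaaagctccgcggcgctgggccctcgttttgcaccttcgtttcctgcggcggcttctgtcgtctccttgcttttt

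Numbered from the start, the Prdx1 window held matches at -135 to -127 and at -9 to -1, and the Txnrd1 window at -78 to -70. The first of these Prdx1 matches and the Txnrd1 match also fit the stricter TGACNNNGC, all of whose matches are matches to the looser pattern too. Prdx3 held a loose match at -165 to -157 and no strict match, and the Sod1 window held neither. The other Txnrd1 window, and those of Txnrd2, Prdx2, Cat and Txn1, held no match, whereas Sod2 held a strict match at -35 to -27. The strict pattern was found in 3 of the 10 windows and in 12.1% of all 33469 promoter windows, and the loose pattern in 4 of 10 and in 40.5%. The windows of these genes were richer in G and C (median 62.5%) than all windows (51.7%). A match is a run of letters and not a measured binding site.

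Thioredoxin reductase transcripts did not pass in either compartment. Txnrd1 encodes the cytosolic reductase. Its brighter probe set, rc_AA891286_at, read 1738.5, 1740.6, 1421.4 and 1250.5 in vehicle replicates 1 to 4 and 1365.1, 1345.1, 1719.2 and 2779.6 after D3T. D3T replicate 4 was the highest of the 8 and the other D3T arrays lay within the vehicle range. The log2 fold change was 0.18 ± 0.22 (SE, n = 4 per group), an unadjusted 95% interval of 0.802-fold to 1.59-fold, with an adjusted p of 0.624. Without D3T replicate 4 it was -0.054 (adjusted p = 0.865), and with the actin covariate -0.24. The second probe set, U63923_at, read 432.8 to 725.7 in vehicle, and 528.7, 793.2, 610.0 and 1299.7 in D3T replicates 1 to 4, again highest in D3T replicate 4. Its log2 fold change was 0.32 ± 0.27 (adjusted p = 0.459) with all arrays and 0.059 (adjusted p = 0.892) without D3T replicate 4.

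Txnrd2 encodes the mitochondrial reductase. AF072865_at read 458.8 to 577.3 in vehicle, and 536.9, 644.9, 1013.1 and 509.2 in D3T replicates 1 to 4, so that D3T replicates 2 and 3 lay above all vehicle arrays and the other D3T arrays among them. Its log2 change was 0.30 ± 0.21 (adjusted p = 0.370), and 0.082 without D3T replicate 3. The partner probe set AF072865_g_at, made from the same sequence record, went from a mean of 388.9 ± 54.3 (SD, n = 4) to 365.1 ± 76.6, a log2 fold change of -0.11 ± 0.19 (adjusted p = 0.728), so the signs of the Txnrd2 probe sets disagreed.

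Prdx6 was higher in all D3T livers than in all vehicle livers by each of its 3 probe sets, of which 2 passed. It encodes the peroxiredoxin with a single catalytic cysteine, which also has a phospholipase activity and is reduced through glutathione and not thioredoxin. Y17295cds_s_at read 571.8, 614.4, 782.1 and 785.5 in vehicle and 928.3, 1040.9, 969.2 and 1045.8 after D3T, with 142.8 between the highest vehicle and the lowest D3T array. It was 1.46-fold higher, at 0.55 ± 0.14 on the log2 scale (adjusted p = 0.0359). AF014009_at read 744.0, 698.9, 648.4 and 843.7 in vehicle and 1185.0, 1198.7, 966.9 and 877.3 after D3T, so the groups separated by only 33.6, between vehicle replicate 4 and D3T replicate 4. It was 1.43-fold higher (0.52 ± 0.15, adjusted p = 0.0483). The brightest probe set, rc_AA892041_at, read 2269.7, 1911.9, 2345.0 and 1934.8 in vehicle and 2899.9, 2874.7, 2563.1 and 2599.0 after D3T. Its groups also separated, at 1.30-fold (0.37 ± 0.11), without passing (adjusted p = 0.0607).

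Y17295cds_s_at passed only without vehicle replicate 4 (adjusted p = 0.0447), and without any other single array its adjusted p ran from 0.0548 to 0.0919. AF014009_at passed only without D3T replicate 4 (0.0464), and otherwise ran from 0.0569 to 0.130. The log2 fold changes of these probe sets in the 8 fits ran from 0.46 to 0.61 for both. The name of Y17295cds_s_at marks shared sequence, so its signal may not come from Prdx6 alone. In a fit without probe sets grouped as shared sequence, neither AF014009_at (adjusted p = 0.0525) nor rc_AA892041_at (0.0636) passed. Averaging the 3 probe sets of Prdx6, in a fit over 3150 genes added after the data were seen, gave a 1.39-fold higher level (0.48 ± 0.11 on the log2 scale, adjusted p = 0.0174), and Prdx6 was the single one of the 9 genes to pass there, where 3.87% of genes passed as higher. In that fit Prdx3 was at 0.28 ± 0.12 (adjusted p = 0.144) and Sod1 at 0.47 ± 0.15 (adjusted p = 0.0641).

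Prdx3, the mitochondrial peroxiredoxin, was 1.31-fold higher by rc_AA799650_at, the most even probe set of all 17 within groups. It read 1127.1, 1166.0, 1228.6 and 1127.4 in vehicle and 1560.6, 1511.1, 1519.9 and 1476.7 after D3T. The coefficient of variation was 4.12% in vehicle and 2.27% after D3T, and the groups were separated by 248.1. The log2 fold change was 0.38 ± 0.10 (SE, n = 4 per group) with an adjusted p of 0.0395. It passed in 1 of 8 fits that left out an array, the one without vehicle replicate 2 (0.0476), and without any other array the adjusted p ran from 0.0573 to 0.0974 while the log2 fold change stayed between 0.37 and 0.41. With no filter on dim probe sets its adjusted p was 0.00541, and with median centring of the arrays 0.0562. The partner probe set rc_AA799650_g_at, from the same sequence record, read 713.4, 664.2, 775.3 and 664.6 in vehicle and 821.0, 957.4, 553.1 and 895.1 after D3T. There D3T replicate 3 was the lowest of all 8 arrays and the other D3T arrays lay above all vehicle arrays. It did not pass (0.17 ± 0.18, adjusted p = 0.545), nor without D3T replicate 3 (0.34, adjusted p = 0.149).

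Prdx1 and Prdx2 are the cytosolic peroxiredoxins that thioredoxin reduces, and neither passed. Prdx1 read 4837.8, 3865.1, 4614.2 and 4504.8 in vehicle and 4709.1, 5263.6, 6727.6 and 4263.3 after D3T. D3T replicate 3 was again the highest and 2 D3T arrays lay within the vehicle range. Its log2 fold change was 0.22 ± 0.15, an interval of 0.928-fold to 1.46-fold (adjusted p = 0.344), and it was 0.090 without D3T replicate 3. Prdx2, which is also abundant in red blood cells, read 1520.2, 1841.3, 1660.8 and 1669.0 in vehicle and 1952.0, 1785.1, 1122.3 and 1885.9 after D3T. Here D3T replicate 3 was the lowest of all 8 arrays. On the log2 scale the change was -0.02 ± 0.17 (adjusted p = 0.950), with an interval of 0.756-fold to 1.29-fold, and became 0.17 without D3T replicate 3 (adjusted p = 0.390) and 0.071 with quantile normalization.

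D3T replicate 3 was the highest or the lowest D3T array in 12 of the 17 probe sets (70.6%), 5 times the highest and 7 times the lowest, while over all 5244 probe sets it was so in 50.3%. The other D3T arrays took 6 to 9 of the 17 places at an extreme. This array was also the D3T array with the highest actin and GAPDH 3'/5' ratios, and the part of RNA quality in its values was not tested. Such a share was not particular to it. In the vehicle group, replicate 2 was at an extreme in 11 of the 17 (64.7%) and in 58.9% of all 5244.

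All 3 probe sets of Sod1, encoding the copper and zinc superoxide dismutase of the cytosol, had every D3T array above the vehicle mean, and none passed. The brightest, M21060_s_at, read 12531.0, 13344.0, 11367.2 and 12575.9 in vehicle and 13890.5, 13771.5, 13007.8 and 15752.2 after D3T. Vehicle replicate 2 lay above D3T replicate 3 and the other arrays were separated by group. This gave a log2 fold change of 0.18 ± 0.10 (adjusted p = 0.272), and 0.043 with quantile normalization. M25157mRNA_i_at read 3780.3, 5852.7, 4317.5 and 3220.5 in vehicle and 8306.2, 6236.6, 5027.7 and 8439.9 after D3T. It had the largest fold of the 17, at 1.63-fold (0.71 ± 0.21), and an adjusted p of 0.0552. The same vehicle replicate 2 was the single vehicle array that reached the D3T range. Without vehicle replicate 2 the adjusted p was 0.0222, without D3T replicate 3 it was 0.0322, and without any other array it ran from 0.0673 to 0.136.

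Y00404_s_at of Sod1 read 3389.5, 3704.9, 2831.8 and 2254.9 in vehicle and 5247.1, 3985.1, 3448.9 and 4781.5 after D3T, again with vehicle replicate 2 above D3T replicate 3. It was 1.44-fold higher (0.53 ± 0.18, adjusted p = 0.0845), and its adjusted p was 0.0497 without vehicle replicate 2. With the actin covariate the 3 Sod1 log2 fold changes were 0.066, 0.19 and 0.25, in the order given. The names of M21060_s_at and Y00404_s_at mark sequence shared with other transcripts or probes, and M25157mRNA_i_at was grouped with them here. The signal of these probe sets may not come from Sod1 alone.

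Sod2, the manganese dismutase of mitochondria, read 305.0, 285.9, 376.2 and 409.0 in vehicle and 391.7, 442.6, 735.4 and 413.9 after D3T. D3T replicate 3 stood far above the rest and D3T replicate 1 lay within the vehicle range. The log2 fold change was 0.49 ± 0.22 (adjusted p = 0.165), and 0.29 without D3T replicate 3 (adjusted p = 0.324).

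Cat, encoding catalase, did not pass. M11670_at read 4607.6, 3813.7, 5601.0 and 4544.6 in vehicle and 4420.6, 5049.7, 4039.5 and 4970.5 after D3T, so all D3T arrays lay inside the vehicle range. The log2 fold change was 0.00 ± 0.13 and its unadjusted 95% interval ran from 0.814-fold to 1.23-fold (adjusted p = 0.998), which for this probe set leaves out changes of the size seen for Prdx6. It moved to -0.028 with quantile normalization and -0.23 with the actin covariate. The similarly bright rc_AA926149_g_at read 4788.4, 3393.0, 5306.3 and 4369.6 in vehicle and 3093.5, 2524.1, 4894.5 and 4411.5 after D3T, and gave -0.29 ± 0.21 (adjusted p = 0.386). Its unadjusted 95% interval, 0.589-fold to 1.14-fold, leaves out a rise of the size seen for Prdx6 but not a fall. D3T replicates 1 and 2 lay below all vehicle arrays there and the other D3T arrays within them. The partner probe set rc_AA926149_at, the single one removed by the filter, had signals of 10.8 to 62.8 in vehicle and 17.9 to 91.8 after D3T.

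Whether related enzymes changed unequally was tested for 3 pairs, with exact two-sided permutation tests over 70 assignments that can give no p below 0.0286. Each gene stood for its brightest probe set. None passed, before or after adjustment over the 3 pairs. The change of Sod1 minus that of Sod2 was -0.32 ± 0.30 on the log2 scale (exact permutation p = 0.371), that of Txnrd1 minus Txnrd2 was -0.12 ± 0.38 (p = 0.8286) and that of Prdx1 minus Prdx2 was 0.24 ± 0.35 (p = 0.686). The adjusted exact permutation p was 0.8286 for all 3. Without D3T replicate 3 the Txnrd1 and Prdx1 differences turned to 0.095 and -0.076. The sign also rests on the probe set: the other Sod1 probe sets, at 0.71 and 0.53, lay above the 0.49 of Sod2, and AF072865_g_at of Txnrd2, at -0.11, lay below both Txnrd1 probe sets.

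**Figure D3:**
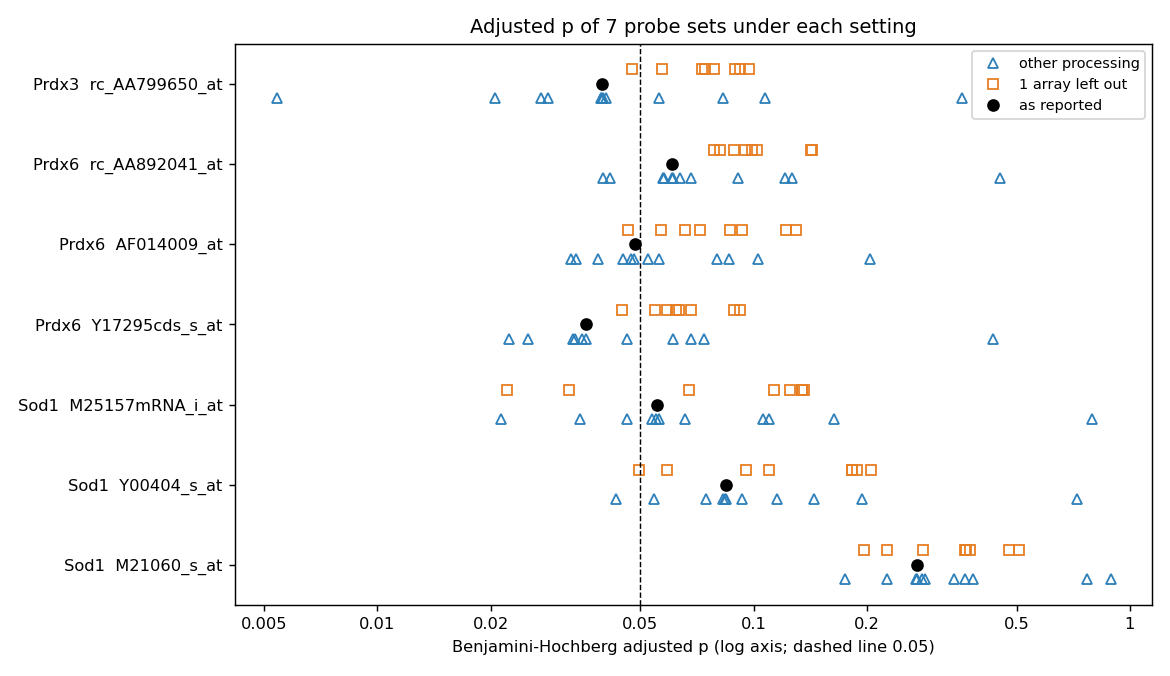
Benjamini-Hochberg adjusted p (log axis, dashed line at 0.05) of the Prdx3 probe set that passed, the 3 Prdx6 and the 3 Sod1 probe sets, as reported (black), with 1 array left out (orange) and under other processing (blue). The 3 reported calls, at 0.0359 to 0.0483, sit close to the line, and most orange squares lie beyond it.

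Around these genes, the list of thioredoxin-fold, repair and neighbouring antioxidant genes had 7 of 20 members measured and tested, 1 higher and 1 lower (median log2 fold change -0.11). Here and below each gene stands for its brightest tested probe set, and of 3150 such genes 3.71% passed as higher and 5.84% as lower, with a median of 0.03. Txn2, the mitochondrial thioredoxin that serves Prdx3, read 2608.7, 2292.5, 2308.1 and 1979.1 in vehicle and 4189.4, 3140.4, 3029.0 and 3629.6 after D3T. All D3T arrays were above all vehicle arrays, at 1.52-fold (0.60 ± 0.14, adjusted p = 0.0207). Txn2 passed in 4 of 8 fits that left an array out, and the adjusted p was 0.0586 or 0.0556 on losing D3T replicate 1 or 4, and 0.0585 or 0.0578 on losing vehicle replicate 3 or 4. With the actin covariate its log2 fold change was 0.45 (adjusted p = 0.372). Txn2 also did not pass with no filter (adjusted p = 0.0568) or with no intensity trend (0.0578).

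Txnip, whose product binds and inhibits thioredoxin, read 520.1, 510.9, 554.4 and 475.9 in vehicle and 349.3, 355.4, 286.2 and 357.1 after D3T, and all D3T arrays lay below all vehicle arrays. It was 1.53-fold lower (adjusted p = 0.0227), and its other probe set also passed as lower (-0.81 ± 0.19, adjusted p = 0.0234). Txnip passed in 4 of 8 such fits, and the adjusted p was 0.0603 or 0.0705 on losing vehicle replicate 1 or 3, and 0.0515 or 0.0505 on losing D3T replicate 1 or 3. It did not pass with the actin covariate (-0.82, adjusted p = 0.135) or with the replicate number as a block (adjusted p = 0.0795). Sod3, the secreted superoxide dismutase, named here after its values were seen, read 507.7 to 621.2 in vehicle and 244.0 to 499.7 after D3T, without overlap, and did not pass (-0.73 ± 0.21, adjusted p = 0.0506).

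The list of peroxisomal oxidases and import genes, which share an organelle with catalase, had 13 of 20 members tested, 0 higher and 1 lower (median -0.13). A dimmer probe set of Abcd3, a peroxisomal fatty acid transporter, did pass as higher (D90038_at, 1.64 ± 0.46, adjusted p = 0.0467), while its brightest one, which counts here, did not (0.82 ± 0.26, adjusted p = 0.0642). The lower gene was Hao2, a peroxisomal hydroxy acid oxidase that makes hydrogen peroxide, with 5831.2, 5238.0, 5649.5 and 5967.2 in vehicle and 3170.1, 3582.9, 4569.2 and 2463.1 after D3T. It was 1.68-fold lower without overlap (adjusted p = 0.0196), and the call was lost with the loss of vehicle replicate 1 (0.0566), 3 (0.0560) or 4 (0.0530) or D3T replicate 1 (0.0570). With the actin covariate its log2 fold change was -0.25 (adjusted p = 0.561). Hao2 also did not pass with no filter (adjusted p = 0.0714) or with no intensity trend (0.0548).

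Of the 9 listed superoxide-producing oxidases 3 had a probe set and 2 were tested, and both were lower (median -1.28). Cyba, the membrane subunit of the phagocyte NADPH oxidase, read 331.5, 344.9, 343.1 and 357.6 in vehicle and 92.7, 90.2, 92.5 and 98.9 after D3T, a 3.68-fold lower level with little spread in either group (adjusted p = 0.000123). It passed in 8 of 8 fits without 1 array and with the actin covariate. Xdh, xanthine dehydrogenase, read 818.1 to 1079.5 in vehicle and 467.8 to 742.1 after D3T and was 1.61-fold lower (adjusted p = 0.0259). Xdh passed in 3 of 8 such fits, those without vehicle replicate 2 and D3T replicates 2 and 3, and its adjusted p was 0.0668, 0.0792, 0.0590, 0.0662 and 0.0601 without vehicle replicate 1, 3 or 4 or D3T replicate 1 or 4. The call was also lost with the actin covariate (-0.45, adjusted p = 0.447), with no filter (0.0631), with no intensity trend (0.0542) and with the replicate number as a block (0.0664).

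Of 12 listed regulators and reference responders to dithiolethiones 8 were tested, of which 4 were higher and 0 lower (median 0.73). Gstp1, Akr7a3 and Nqo1 led, with log2 fold changes of 4.90, 4.04 and 1.78, and each passed in all 8 fits without 1 array. With the actin covariate Gstp1 and Akr7a3 passed and Nqo1 did not (1.67, adjusted p = 0.0802). Each of these genes was read by a probe set with an _s_at name, which marks shared sequence, so its signal may not come from that gene alone. The threshold was not met by Nfe2l2, at -0.73 ± 0.37 on the log2 scale (adjusted p = 0.219), nor by its other probe set (-0.71 ± 0.26, adjusted p = 0.0988). Hmox1 (-0.44 ± 0.25), Gclm (0.40 ± 0.14) and Mafk (0.32 ± 0.17) did not pass either. The other Hmox1 probe set was at -0.32, and the other Gclm probe sets were at 0.09 and -0.37.

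**Figure D4:**
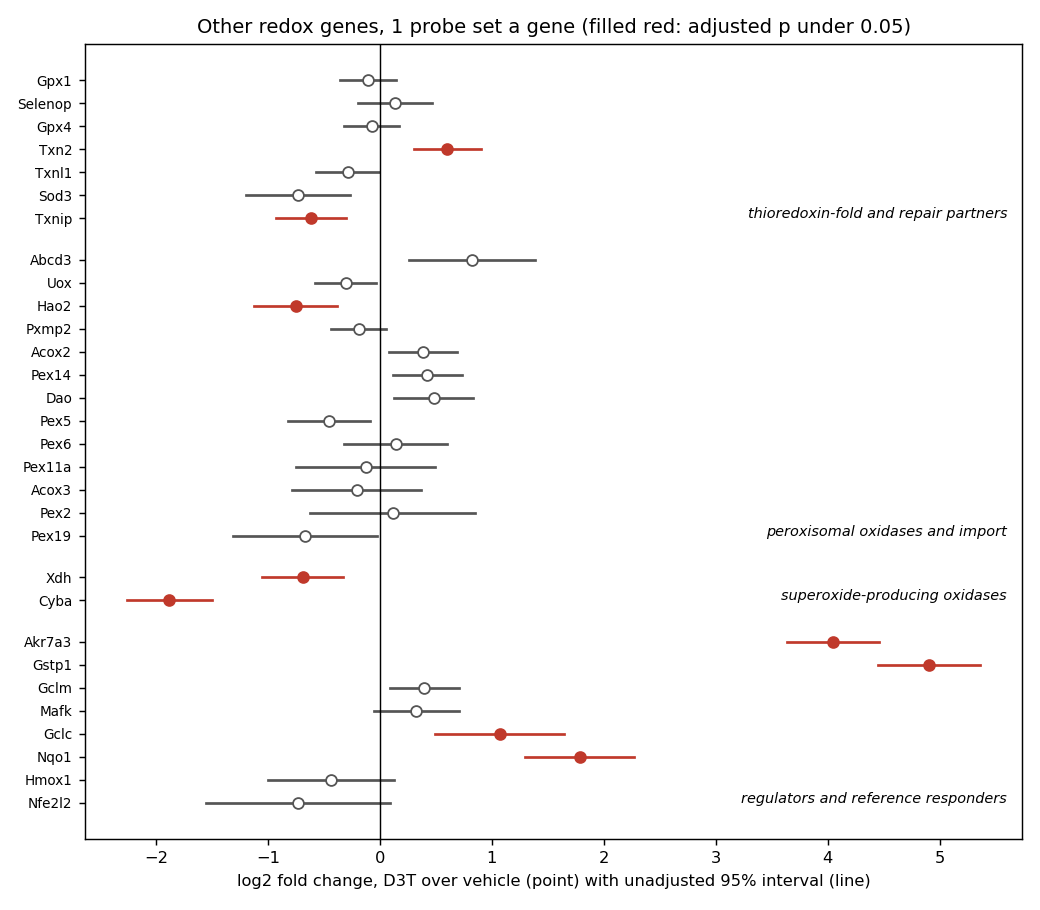
Log2 fold change of D3T over vehicle, with its unadjusted 95% interval, for the tested genes of the 4 lists around the thioredoxin and peroxide enzymes, 1 probe set a gene. Filled red points passed the threshold: Txn2 to the right of 0, Txnip, Hao2, Xdh and Cyba to the left, and Akr7a3, Gstp1, Gclc and Nqo1 among the reference responders.

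The genes whose pattern over the 8 arrays was closest to Prdx3, each centred on its own mean log2 signal, were Mdh1, a malate dehydrogenase, Slc25a3, the mitochondrial phosphate carrier, and Nme1, a nucleoside diphosphate kinase. They differed from Prdx3 by a root mean square of 0.0755, 0.0760 and 0.0804 log2 units, and their log2 fold changes were 0.48, 0.29 and 0.39, of which only that of Mdh1 passed (adjusted p = 0.0116).

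Among other cell types, red blood cells matter because they hold much Prdx2, Sod1 and catalase protein. Of their 11 listed markers 5 had a probe set and 4 were tested, none of which passed (median -0.29). Their summed signal ran from 15014 to 20688 in vehicle and from 10645 to 14454 after D3T. Most of it came from Hbb, a beta globin, at 10176 to 14742 and 6745 to 9435 (-0.51 ± 0.16, adjusted p = 0.0600). The other markers tested did not share a direction. Hbb-b1 was at -0.45 ± 0.15 and Alas2 at -0.13 ± 0.15, while Slc4a1 was at 0.33 ± 0.17 (adjusted p = 0.215). Of 6 macrophage markers tested, Cd14 was higher and C1qb lower (summed signal 5443 to 6076 in vehicle and 4405 to 5385 after D3T). The hepatocyte sum was 195194 to 292612 in vehicle and 246613 to 338139 after D3T, with 1 of 9 lower, Fgb. Col3a1 was lower among 6 stellate cell and fibroblast markers tested (sums of 1948 to 3468 and 1588 to 2102). It made the largest part of these sums, at 1001 to 2236 in vehicle and 661.6 to 1037 after D3T, with overlap. Col1a1 and Dcn had positive log2 fold changes (0.14 and 0.18), and Col1a2, Pdgfrb and Lum negative ones (-0.67, -0.21 and -0.25). None passed of 5 lymphocyte (700.7 to 877.6 and 851.3 to 1153), 3 endothelial (395.7 to 626.1 and 329.9 to 555.5) or 3 bile duct markers (265.3 to 423.7 and 375.1 to 477.0). The part of these cells in the results above was not tested.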

How the data were processed

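The deposited values are linear signal intensities made by the authors with MAS5, the Affymetrix summary of probe pairs, per the submitters' processing notes; its version, scaling target and detection calls were not given in the sources used. The 2% trimmed means of the 8 arrays lay between 500.8 and 501.0, and rescaling each to 500 changed no signal by over 0.203%. Groups and replicate numbers came from the sample titles.

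Signals below the 20th percentile (20.3) were raised to it and log2 was taken. Without 59 control probe sets, the brightest 60% of 8740, blind to group, were tested (5244) with limma (3.58.1, under R 4.3.3): lmFit, eBayes with the variance trended on intensity, Benjamini-Hochberg adjusted p-values. Means and SDs are of deposited signals over 4 arrays. The number of arrays limits the precision, since intensities have no depth. Arrays are of separate rats, per the series design. Gene names came from the platform annotation: 7006 probe sets had 1 symbol, 308 several and 1426 none. Likeness took the 3 genes closest to a member whose brightest probe set passed. In each list up to 3 called genes are named. The members, lists and alternatives were chosen with earlier results of these data known. Scripts were tested on simulated data. Probe set names ending in _s_at or _g_at mark shared sequence, and names ending in _i_at and the like were grouped with them.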

Additional observations from a re-analysis of the deposited data

Results flagged for a closer look

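Among 34 groups of 4 arrays (17 probe sets in each treatment group), 1 held an array set apart from the other 3 by a gap above the 95% critical value of Dixon's test, where chance sets apart about 1 in 20 groups. Prdx2 had a signal of 1122.3 in D3T replicate 3, with the gap to the next array taking 0.838 of the group's range on the log2 scale.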

How the results depend on the processing

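The number of probe sets past the threshold over all tested was 560, against 309 with no filter, 333 with no intensity trend, 290 with the replicate block, 35 with the actin covariate and 262 without probe sets named for shared sequence, and 240 to 695 without 1 array. The number of member probe sets that passed as higher was 3, against 1 with median centring, 1 with no filter, 5 with the brightest 30% tested, 0 with no intensity trend, 5 with array weights, 0 with the replicate block, 0 with the actin covariate and 1 without shared-sequence probe sets (of 9 still tested), and 0 to 3 without 1 array. At both settings that gave 5, more probe sets also passed among all tested: 588 of 2622 (brightest 30%) and 824 of 5244 (array weights). The member number was 3 with no rescaling or a pseudocount of 16. It was 4 with quantile normalization (565 of all 5244 passed) or a floor at the 40th percentile (605 of 5244). The number that passed as lower was 0 under every setting. The reported fit did not pair same-numbered arrays. The correlations of their deviations from group means were 0.06, -0.09, 0.01 and -0.20, which cannot show whether same-numbered rats were handled together.

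Signs turned only for values that did not pass. Cat M11670_at was -0.028 with quantile normalization, -0.014 with median centring, -0.050 with array weights, -0.23 with the actin covariate and -0.090 to 0.095 without 1 array. Prdx2 was 0.071 with quantile normalization, 0.042 with array weights and -0.100 to 0.17 without 1 array. With the actin covariate rc_AA799650_g_at of Prdx3 was -0.22 and the Txnrd1 probe sets -0.24 and -0.40. Without 1 array rc_AA891286_at of Txnrd1 ran from -0.054 to 0.29 and AF072865_g_at of Txnrd2 from -0.21 to 0.035. The paired differences were computed under 14 settings, the reported one included: other scaling, another floor and each array left out. Over these Txnrd1 minus Txnrd2 ran from -0.47 to 0.095 and Prdx1 minus Prdx2 from -0.076 to 0.39, both turning without D3T replicate 3, and neither passed. With the actin covariate, where the differences were not computed, Txnrd1 was at -0.24 and Txnrd2 at 0.77, and Prdx1 at 0.58 and Prdx2 at -0.42. The cause of these changes was not tested. None of the 17 tested had an array below the floor.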
